A study of Mus musculus with 8 samples.

Results

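The 46 genes described here, of 32285 genes in the count tables, are those that carry a cell through DNA replication and division, matched by gene symbol. They comprised 18 S phase genes, 24 G2/M genes, the 3 D-type cyclins and Mxd3, a partner of Max in the Myc network that was placed in neither list. Expression was measured as unique molecular identifiers (UMIs, each standing for 1 captured transcript) by 3' single-cell RNA sequencing in 8 libraries, all of C57BL/6 mouse colon. Epithelium came from crypts isolated from colon tissue, from organoids and from assembloids, and stroma came from assembloids as EpCAM-negative cells, with 2 libraries in each of the 4 groups. Organoids are epithelial cultures grown in Matrigel in full medium, which holds Wnt surrogate, CHIR-99021, R-spondin 1 and noggin. Assembloids are organoids embedded with pre-cultured primary colon stromal cells and grown for several days without those 4 supplements. The medium as well as the stroma thus separated them from organoids. Assembloids were also kept on an orbital shaker and were built from organoids that were already several days old. These culture steps cannot be told apart from the group either. All were digested with TrypLE, tissue crypts after release with EDTA and assembloids after a digest with Liberase TL, so the steps before TrypLE cannot be told apart from the group. According to the methods the mice were young adult males and the stromal libraries came from 2 mice. The study calls the 2 libraries of each group biological replicates, while for the epithelial libraries no source used here ties a sample to a mouse or a culture. The p-values below measure the spread between these libraries.

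As background, a cell commits to division when D-type and E-type cyclins with their kinases free E2F transcription factors from the retinoblastoma proteins. E2F then switches on the genes of origin licensing, helicase assembly and nucleotide supply that are needed in S phase. Later in the cycle the MuvB complex with B-Myb and FoxM1 switches on the G2/M genes, among them the mitotic cyclins, the spindle checkpoint and the motors of the spindle. In the colon, dividing cells lie in the lower part of the crypt, and cells stop dividing as they move up and differentiate into colonocytes and goblet cells. Cells at the crypt base receive Wnt signals from the stroma, and Ccnd1 is a textbook Wnt target gene.

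The 2 lists differed in the letters near their start sites. RefSeq (GRCm38.p6) gave promoters of 300 bases, from 250 before to 50 after the start, for 37 of the 46 genes and for 27025 genes in all. The counts and shares are of genes, where a gene counted once if any of its promoters held a match. The CHR element (TTTGAA or TTCGAA) binds the MuvB complex. It was found on either strand in 16 of 20 G2/M genes, in 3 of 15 S genes and in 21.7% of all genes. The CCAAT box (CCAAT), which binds NF-Y, stood in 18 of 20 G2/M promoters and 10 of 15 S promoters, against 41.1% of all. An E2F site (TTTCCCGC, TTTCGCGC, TTTGCCGC or TTTGGCGC) stood in 7 of 15 S promoters, in 1 of 20 G2/M promoters and in 2.6% of all. CCAAT and CHR stood together in 16 of 20 G2/M promoters, in 3 of 15 S promoters and in 9.65% of all. None of these motifs contains another, and a match is a description of the letters, not evidence of binding. The 170 bases upstream of the start of 3 G2/M genes (Mki67, Top2a and Kif11) and 2 S genes (Mcm5 and Mcm6) are printed to show both layouts, 5' to 3' on the gene's own strand, with the letters of each motif match on either strand in capitals. They lie at chr7:135716380-135716549 (minus strand), chr11:99024190-99024359 (minus), chr19:37376212-37376381 (plus), chr8:75109339-75109508 (plus) and chr1:128359706-128359875 (minus) of GRCm38, and overlap no annotated exon.
Mki67: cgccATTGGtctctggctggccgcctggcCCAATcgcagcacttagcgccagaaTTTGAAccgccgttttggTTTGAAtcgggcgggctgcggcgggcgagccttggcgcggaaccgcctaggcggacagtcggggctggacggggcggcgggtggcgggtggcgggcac
Top2a: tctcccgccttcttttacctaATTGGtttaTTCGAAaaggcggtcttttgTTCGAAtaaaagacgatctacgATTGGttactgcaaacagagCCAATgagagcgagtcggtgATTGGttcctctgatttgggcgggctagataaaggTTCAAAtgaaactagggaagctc
Kif11: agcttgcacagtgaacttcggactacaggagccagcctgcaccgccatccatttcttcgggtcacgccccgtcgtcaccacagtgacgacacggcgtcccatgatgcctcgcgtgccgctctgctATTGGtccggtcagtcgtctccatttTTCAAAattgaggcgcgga
Mcm5: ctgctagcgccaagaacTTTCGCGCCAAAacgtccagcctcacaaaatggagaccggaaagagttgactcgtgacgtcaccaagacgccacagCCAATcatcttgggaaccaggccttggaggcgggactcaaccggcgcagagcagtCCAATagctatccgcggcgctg
Mcm6: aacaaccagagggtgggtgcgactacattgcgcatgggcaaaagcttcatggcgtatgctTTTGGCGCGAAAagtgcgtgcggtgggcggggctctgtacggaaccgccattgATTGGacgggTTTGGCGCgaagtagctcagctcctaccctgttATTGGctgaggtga
Mki67 and Top2a, the first 2 of these, encode the proliferation antigen Ki-67 and DNA topoisomerase II alpha and also served below to mark cycling cells. Both hold CCAAT boxes in either orientation (CCAAT or ATTGG) and CHR letters, while the joined capitals in Mcm5 and Mcm6 are overlapping E2F matches on the 2 strands.

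The libraries held 99133978 to 191255856 UMIs in 5984 to 32932 barcodes, of which 25.4% to 96.1% passed a filter of at least 500 genes and at most 10% mitochondrial UMIs. Cells were assigned to epithelium or fibroblasts by marker genes, which left 4298 to 25728 epithelial cells in each of the 6 epithelial libraries and 7912 and 8693 fibroblasts in the stromal libraries. The median number of UMIs in cells that passed ranged from 3444 to 35219, and this difference in depth bears on every share of cells given below. Of cells that passed, 25728 of 29410 and 6800 of 7722 were assigned to epithelium in the assembloid libraries, 4870 of 4872 and 7941 of 8034 in the organoid libraries and 4677 of 4692 and 4298 of 4310 in tissue. Because epithelial markers chose the cells, their sums of 7112 to 12023 counts per 1000000 UMIs (plain CPM, with library totals and no further scaling) in cycling epithelial cells describe the assignment and do not test it. Fibroblast markers summed to 105 and 40.03 plain CPM in cycling epithelial cells of the assembloids and to at most 0.320 in those of organoids and tissue, and immune markers to 35.2 and 34.5 against 0.424 to 1.36, and the part of these transcripts in the results was not tested. Each of the 28 pairs of libraries shared 13 to 141 cell barcodes.

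Over all epithelial cells of a library, organoids carried far more of both S and G2/M transcripts than tissue, while assembloids stood above tissue in most G2/M genes and, in S genes, in about the share found among all genes. UMIs were summed per library and tested across 19140 genes with the edgeR quasi-likelihood test and Benjamini-Hochberg adjustment, and levels are given as counts per 1000000 UMIs (CPM) after TMM scaling of the library totals. In such sums, fewer cycling cells and less RNA per cycling cell cannot be told apart. In organoids, 45 of the 46 genes were higher than in tissue and none was lower (24.2% and 22.8% of all genes tested were), and Ccnd3 was the exception. The median log2 fold change was 2.41 for the S genes and 2.51 for the 24 G2/M genes, against 0.06 for all genes.

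Rrm2, the small subunit of ribonucleotide reductase that supplies deoxynucleotides (chr12:24708241-24714146, GRCm38, plus strand), showed the highest difference of all members between organoids and tissue. Its level was 134 and 82.0 CPM in organoids, 16.5 and 12.9 in assembloids and 6.74 and 9.25 in tissue. The groups did not overlap, and organoids exceeded tissue 13.5-fold (log2 3.76 ± 0.31 SE, adjusted p = 5.29e-05, n = 2 per group). The lowest difference among S genes was that of Tyms, thymidylate synthase, at 151 and 89.7 in organoids and 37.2 and 45.1 in tissue (log2 1.55 ± 0.29, adjusted p = 0.00269). Among the G2/M genes, Aurka, the kinase that matures spindle poles, was at 71.2 and 46.9 in organoids, 28.6 and 18.2 in assembloids and 7.27 and 5.69 in tissue, 9.10-fold above tissue in organoids (log2 3.19 ± 0.31, adjusted p = 0.000117). Mki67 had the lowest difference of the G2/M list, at 261 and 224 in organoids against 82.7 and 61.3 in tissue (log2 1.75 ± 0.26, adjusted p = 0.000961). All 10 licensing and helicase genes (Cdc6, Cdt1, Cdc45, Gins2, Mcm2, Mcm3, Mcm4, Mcm5, Mcm6 and Mcm7) and all 9 genes of the mitotic kinases, checkpoint and anaphase-promoting complex were higher in organoids, with log2 differences of 2.08 to 3.13 and 2.19 to 3.19.

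**Figure D1:**
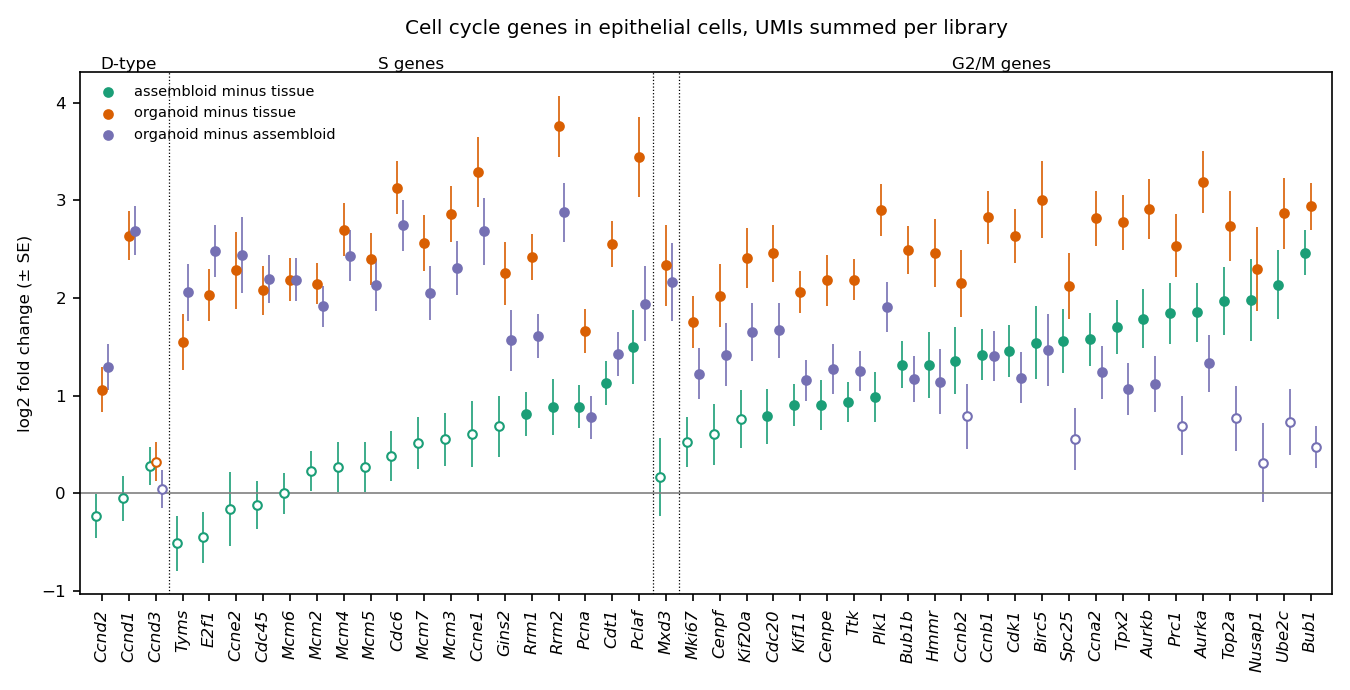
Log2 fold changes of the cell cycle genes over all epithelial cells of a library, with 1 column per gene grouped by list and points for each of the 3 comparisons (bars, SE, n = 2 libraries per group, filled where the adjusted p is under 0.05). In assembloids against tissue the median was 0.45 for S genes and 1.44 for G2/M genes, whereas in organoids against tissue both medians were above 2.4.

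In assembloid epithelium, 21 of 24 G2/M genes and 5 of 18 S genes were higher than in tissue and none was lower, against 26.6% higher and 23.2% lower of all genes tested. The S count was thus near the background. All 4 genes of the mitotic cyclins and their kinase (Ccna2, Ccnb1, Ccnb2 and Cdk1) and all 9 of the kinases, checkpoint and anaphase-promoting complex were higher, by log2 0.79 to 2.46, although by library totals without TMM Cdc20, Plk1 and Ttk did not pass. Bub1, a kinase of the spindle checkpoint (chr2:127801122-127831865, GRCm38, minus strand), was at 4.90 and 4.15 CPM in tissue, 27.7 and 22.3 in assembloids and 39.5 and 29.9 in organoids. Assembloids thus held 5.52-fold more than tissue (log2 2.46 ± 0.23, adjusted p = 0.000113), and the assembloid and organoid libraries stood apart from tissue but close to each other. Among the other G2/M genes, Aurkb and Birc5, the kinase of the chromosomal passenger complex and its survivin subunit, were higher by log2 1.79 ± 0.30 and 1.54 ± 0.37 (adjusted p = 0.00164 and 0.00928), and the checkpoint kinase Bub1b by 1.32 ± 0.24 (adjusted p = 0.00259). The spindle proteins Tpx2 and Hmmr were higher by 1.70 ± 0.27 and 1.32 ± 0.34 (adjusted p = 0.00139 and 0.0120) and the kinetochore motor Cenpe by 0.91 ± 0.26 (adjusted p = 0.0181). Birc5 lost its call without either tissue library, Hmmr and Cenpe without assembloid replicate 1 or tissue replicate 2, and Cenpe also at no more than 20% mitochondrial UMIs and by library totals without TMM (log2 0.50, adjusted p = 0.121). The 3 G2/M genes that did not pass were Cenpf, Kif20a and Mki67, which was at 120 and 87.2 in assembloids (log2 0.53 ± 0.26, adjusted p = 0.122) and passed at no more than 5% mitochondrial UMIs (log2 0.89). The 5 S genes that passed were Pclaf, Pcna, Rrm1, Rrm2 and Cdt1, 4 of which act in DNA synthesis and nucleotide supply. Pclaf, a PCNA partner, led at 104 and 53.1 CPM in assembloids against 26.9 and 28.4 in tissue (log2 1.500 ± 0.378, adjusted p = 0.0113), and did not pass without assembloid replicate 1 (log2 0.97, adjusted p = 0.0701) or either tissue library. The lowest S gene was Tyms, at 32.7 and 25.1 against 37.2 and 45.1 (log2 -0.51 ± 0.28, adjusted p = 0.163), which passed as lower without organoid replicate 1 (adjusted p = 0.0456), and of the 10 licensing and helicase genes 1, Cdt1, passed. The S count fell to 1, 0 and 1 without assembloid replicate 1, tissue replicate 1 and tissue replicate 2, and the G2/M count to 12 without tissue replicate 2. With library totals in place of TMM, which moved the median of all genes by -0.39, 2 S genes were higher (Cdt1, Pclaf), 2 were lower (E2f1, Tyms) and 16 G2/M genes were higher.

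Organoid epithelium exceeded assembloid epithelium in 38 of 46 genes, against 24.3% higher and 28.4% lower of all genes tested, and the S genes led. All 18 S genes and 17 of 24 G2/M genes were higher and none was lower. Median log2 differences were 2.16 for S genes and 1.18 for G2/M genes. The S list ran from Rrm2 (log2 2.88 ± 0.30, adjusted p = 0.000210) down to Pcna, the sliding clamp of DNA polymerase, at 202 and 164 CPM in organoids and 113 and 100 in assembloids (log2 0.78 ± 0.22, adjusted p = 0.0172), which did not pass without either assembloid or either tissue library or at no more than 20% mitochondrial UMIs (adjusted p = 0.0705). The G2/M list ran from Plk1, a kinase needed for mitotic entry and spindle assembly, at 74.1 and 53.4 against 19.8 and 14.2 (log2 1.91 ± 0.26, adjusted p = 0.000628), down to Nusap1, a protein that bundles spindle microtubules. Nusap1 was at 94.9 and 83.6 in organoids and 104 and 39.3 in assembloids (log2 0.32 ± 0.41, adjusted p = 0.535), so that the organoid libraries lay between the 2 assembloid libraries. Without assembloid replicate 1 it was higher in organoids (log2 1.14, adjusted p = 0.0199). Top2a, Bub1, Ube2c, Ccnb2, Prc1 and Spc25 did not pass either. Mxd3 was low in every epithelial library, at 11.1 and 6.57 in organoids, 2.64 and 1.29 in assembloids and 1.78 and 1.72 in tissue, and higher in organoids than in assembloids (log2 2.17 ± 0.40, adjusted p = 0.00260).

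To ask how many cells carried these transcripts, cells with at least 2 UMIs of Mki67 and at least 2 of Top2a were counted as cycling. The gate held 69.4% (95% exact binomial interval 68.1 to 70.7) and 32.8% (31.7 to 33.8) of epithelial cells in organoids, 8.37% (8.04 to 8.72) and 15.4% (14.5 to 16.2) in assembloids, and 5.05% (4.44 to 5.71) and 3.91% (3.35 to 4.53) in tissue. These intervals, as all counting intervals below, cover counting error only. The gate follows depth, and when each cell was thinned to 5000 UMIs and shallower cells were left out the shares were 18.2% and 21.2% in organoids, 6.60% and 6.09% in assembloids, and 4.76% and 3.77% in tissue. The group means were 19.7% ± 2.08 (SD, n = 2), 6.34% ± 0.362 and 4.27% ± 0.697. Thinned, the library shares of the 3 groups did not overlap and the replicates of each group lay close together. However, 2 libraries against 2 cannot reach an exact permutation p below 0.333. The exact intervals of assembloid replicate 2 (5.46 to 6.758) and tissue replicate 1 (3.911 to 5.725) overlapped, so these libraries are not set apart by counting. Thinning left out 16027 of 25728 cells of assembloid replicate 1 but 176 of 4870 of organoid replicate 1. The thinned shares thus rest on unequal parts of the libraries. Without thinning, at most 5% mitochondrial UMIs lowered the tissue shares to 1.84% and 2.03%. At most 20% raised them, to 582 of 7996 and 651 of 10364 cells, from 236 of 4677 and 168 of 4298. At 20% the gate held 2209 of 26973 and 1190 of 8886 assembloid cells, and 3504 of 5228 and 3883 of 12210 organoid cells. The tissue shares thus depended on the mitochondrial limit, and no thinned share is given at 20%. Cycling tissue cells had a median of 7.097% and 7.60% mitochondrial UMIs against 2.10% to 4.84% in cycling organoid and assembloid cells.

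Transcripts of Mki67 and Top2a can also reach a droplet as free RNA. Cells with at least 2 UMIs of Krt20, a keratin of differentiated surface colonocytes that should hold few dividing cells, were therefore counted in the same way, a reference chosen after the data were seen. Among them the gate held 8.38% and 7.31% in assembloids and 1.76% and 1.09% in tissue, at median depths of 9494 and 18154.5 and of 17651 and 15331.5 UMIs. Thinned to 5000 UMIs, these shares were 1.66% and 1.54% in assembloids and 0.232% and 0.416% in tissue. In the organoids, 0 of 14 and 0 of 10 such cells were inside after thinning, which allows shares of up to 21.43% and 30.00% at 3 cells of the total (upper bounds of the exact interval 23.16% and 30.85%). In assembloid replicate 1 the unthinned shares of all epithelial cells (8.37%, at a median of 3566.5 UMIs) and of Krt20 cells were alike at unlike depths, so no order is read from them. At equal depth the share was 6.60% over all epithelial cells of that library against 1.66% in its Krt20 cells. No share was corrected for this reference, which was higher in assembloids than in tissue. Whether the order of assembloids and tissue depends on it was not tested.

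**Figure D2:**
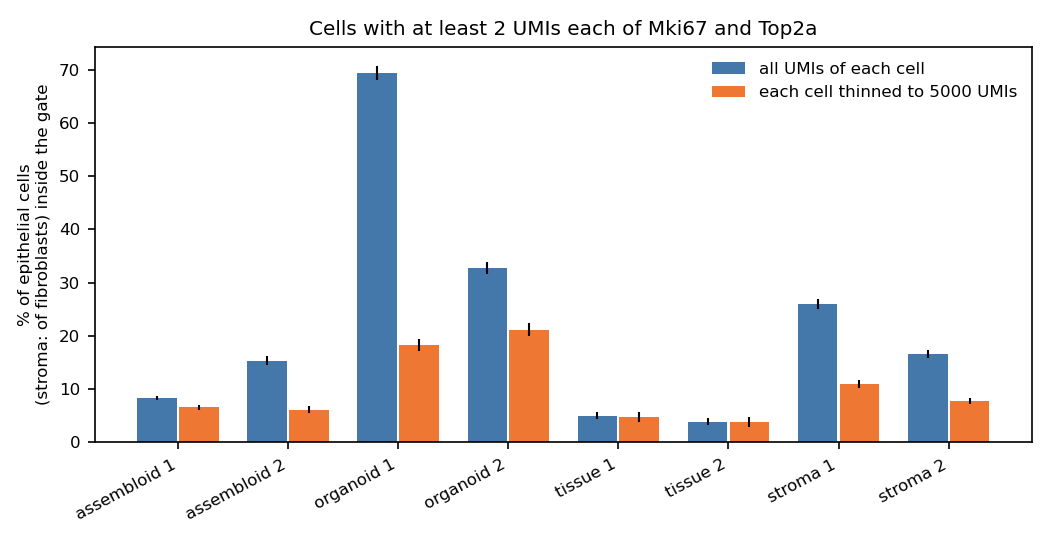
Percent of cells with at least 2 UMIs of Mki67 and of Top2a in each library, over all cells and after thinning to 5000 UMIs (bars, 95% exact binomial interval). Organoid libraries stand highest on both scales, and thinning brings the 2 organoid libraries from 69.4% and 32.8% to 18.2% and 21.2%.

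Cycling cells of the 3 epithelia differed in the balance of summed S and G2/M transcripts. Inside the gate, the 18 S genes summed to 631 and 680 plain CPM in assembloids, 1031 and 1233 in tissue and 1768 and 1605 in organoids. The 22 G2/M genes other than Mki67 and Top2a summed to 1977 and 2125 in assembloids, 2237 and 1994 in tissue and 2491 and 2244 in organoids. The ratio of S to G2/M UMIs was 0.319 and 0.320 in assembloids, 0.461 and 0.618 in tissue and 0.710 and 0.715 in organoids. S sums and ratios did not overlap between the groups, whereas the G2/M sums of assembloids and tissue did. Gating after thinning to 5000 UMIs gave mean ratios of 0.279, 0.379 and 0.509 in the same order. By library they were 0.2845 and 0.274, 0.3158 and 0.4426, and 0.5075 and 0.5107. These sums pool all gated cells. The median S share of a gated cell's S and G2/M UMIs was 23.08% and 23.81% in assembloids and 24.84% and 38.66% in tissue. After thinning it was 19.97% in tissue replicate 1, below both assembloid libraries, while tissue replicate 2 lay above them. No order of assembloids and tissue is read from these medians. Cells with at least 5000 UMIs and none of Mki67 or Top2a had S sums of 211 and 160 plain CPM in assembloids, 149 and 172 in tissue and 537 and 676 in organoids. Their G2/M sums were 236 and 139 in assembloids, 71.8 and 74.7 in tissue and 319 and 461 in organoids. Between assembloids and tissue the S sums overlapped there, whereas the G2/M sums were higher in assembloids. In these cells the ratio of S to G2/M was 0.894 and 1.15, 2.07 and 2.31, and 1.69 and 1.47. Krt20 cells were also inside the gate. They were 241 of 2154 and 104 of 1044 gated cells in assembloids, 8 of 236 and 6 of 168 in tissue, and 1 of 3381 and 1 of 2601 in organoids. Without them, an alternative added after the data were seen, the ratios were 0.312 and 0.325 in assembloids, 0.455 and 0.584 in tissue and 0.710 and 0.716 in organoids, again without overlap.

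Cell by cell, UMIs of both lists were found together most often in organoids. After thinning to 5000 UMIs, 79.0% and 73.2% of organoid cells held at least 3 UMIs of both lists, against 22.9% and 16.0% of assembloid cells and 6.51% and 6.34% of tissue cells. Cells with at least 3 G2/M but fewer than 3 S UMIs made up 29.4% and 16.2% in assembloids, 8.62% and 6.08% in tissue, and 4.99% and 8.03% in organoids. Krt20 cells were counted in the same way. Among them such cells made up 20.1% and 7.28% in assembloids (of 2174 and 1360) and 1.16% and 0.624% in tissue (of 432 and 481). Krt20 cells with at least 3 UMIs of both lists made up 10.4% and 4.04% in assembloids and 0.694% and 1.04% in tissue. The assembloid references are large, so no order between assembloids and tissue is read from these shares. With 14 and 10 Krt20 cells the organoids have no usable reference. Among cells with at least 3 G2/M UMIs, 43.7% and 49.8% in assembloids and 43.0% and 51.1% in tissue also held at least 3 S UMIs, and 94.1% and 90.1% did in organoids. Cells with S but fewer than 3 G2/M UMIs made up 7.25% to 12.0% of cells in all 6 libraries.

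**Figure D3:**
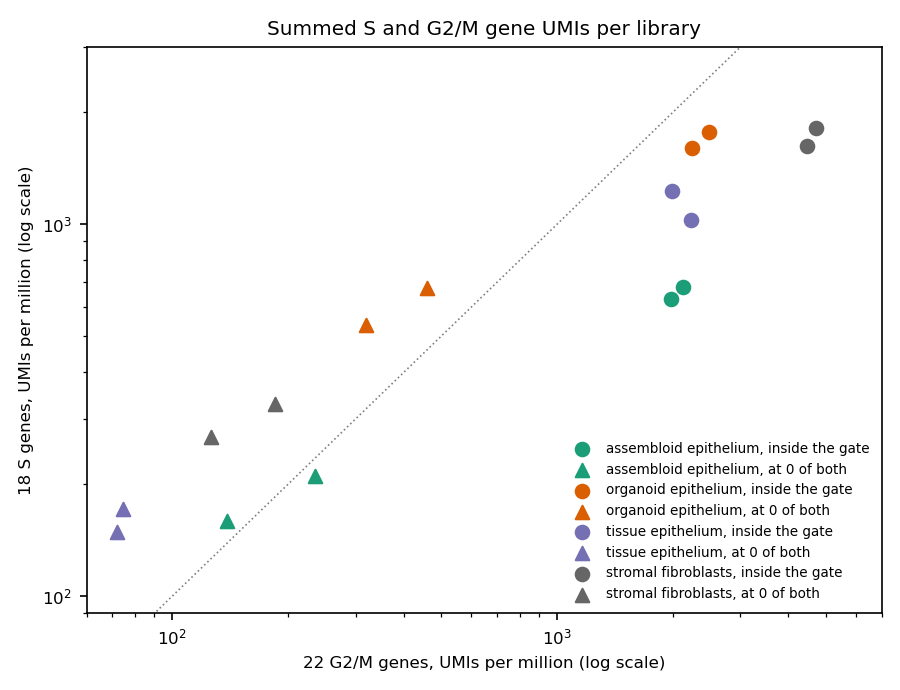
Summed plain CPM of the 18 S genes against those of the 22 G2/M genes (without Mki67 and Top2a), 1 point per library, in cells inside the gate and in cells with none of Mki67 or Top2a. Cycling epithelial cells reach similar G2/M sums (1977 to 2491) at S sums from 631 to 1768, and cycling fibroblasts of the stroma lie at G2/M sums of 4460 and 4712.

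Fitted gene by gene over the cycling cells (1044 to 3381 cells per library in organoids and assembloids, 236 and 168 in tissue, 16337 genes tested), assembloid cells were lower than tissue cells in 7 of 18 S genes and higher in 4 of 22 G2/M genes. No S gene was higher and no G2/M gene lower, while 22.9% of all genes tested were higher and 19.9% lower. In this fit the share of higher G2/M genes was thus no larger than that of all genes. With DESeq2 9 of the 22 were higher, and 7 with a gate of 1 UMI each, and the shares of all genes there are not given. Without the Krt20 cells in the gate 5 S genes were lower (Cdc6 and Mcm6 did not pass, adjusted p = 0.0667 and 0.0583) and 5 G2/M genes higher. Because Mki67 and Top2a chose the cells, they were not tested. All 3 regulators of the G1/S step were lower in assembloids, of which Ccne1 depended on the setting. E2f1, an activating E2F factor (chr2:154559407-154569892, GRCm38, minus strand), was at 5.60 and 4.99 CPM in assembloids, 13.8 and 17.8 in tissue and 25.4 and 18.8 in organoids. Every assembloid library was below every other library, and the deficit against tissue was 2.95-fold (log2 -1.56 ± 0.27, adjusted p = 0.00105). Ccne2, a cyclin that activates Cdk2 for S phase entry, was at 8.22 and 5.62, 18.2 and 22.9, and 35.7 and 26.6 in the same order (log2 -1.56 ± 0.28, adjusted p = 0.00130). Its paralog Ccne1 was at 6.26 and 5.45, 10.3 and 12.8, and 41.6 and 24.3 (log2 -0.97 ± 0.31, adjusted p = 0.0256), and did not pass without assembloid replicate 2 or either tissue library, with a gate of 1 UMI each (log2 -0.60, adjusted p = 0.131), with the gate after thinning (log2 -0.81, adjusted p = 0.0603) or at no more than 20% mitochondrial UMIs (log2 -0.82, adjusted p = 0.0873). The other S genes that were lower were Cdc45, Cdc6, Mcm6 and Tyms, by log2 0.68 to 1.17. Each of these lost its call without tissue replicate 2. Mcm6 and Tyms also did without assembloid replicate 1 or tissue replicate 1, and Mcm6 without assembloid replicate 2 and at no more than 20% mitochondrial UMIs. Cdc6 also lost its call with DESeq2, with a gate of 1 UMI each and with the gate after thinning. The same held for Cdc6 at no more than 20% mitochondrial UMIs and without gated cells above the 95th percentile of UMIs. It held as well without either assembloid library, organoid replicate 2 or tissue replicate 1. Cdt1, the licensing factor, had the highest S value, at 27.0 and 30.4 against 22.9 and 26.3 (log2 0.23 ± 0.22, adjusted p = 0.425). Mxd3 was lower as well (log2 -0.92 ± 0.34, adjusted p = 0.0472), a call lost in 10 of the 19 alternatives, among them DESeq2 (adjusted p = 0.0858), a gate of 1 UMI each (log2 -0.75, adjusted p = 0.107) and the fits without assembloid replicate 2, organoid replicate 2 or either tissue library.

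The 4 G2/M genes that were higher in cycling assembloid cells were Bub1, Ube2c, Nusap1 and Aurka. Bub1 was at 60.1 and 66.7 CPM in assembloids, at 46.5 and 39.2 in organoids, at 26.9 and 25.9 in tissue, without overlap between any groups. It was 2.40-fold above tissue (log2 1.26 ± 0.22, adjusted p = 0.000927) and 1.48-fold above organoids (organoids minus assembloids, log2 -0.57 ± 0.20, adjusted p = 0.0409). The call against organoids was lost in 11 of the 19 alternatives, with its direction kept. These were the fits without any library but organoid replicate 1, library totals without TMM (log2 -0.49, adjusted p = 0.122), no filter on low counts (adjusted p = 0.131), all passing cells (adjusted p = 0.0538), no more than 20% mitochondrial UMIs (adjusted p = 0.0875), a gate of 1 UMI each (log2 -0.34, adjusted p = 0.198) and the gate after thinning (adjusted p = 0.0538). Ube2c, the ubiquitin-conjugating enzyme of the anaphase-promoting complex, was at 350 and 390 in assembloids and 178 and 177 in tissue, with 429 and 226 in organoids (log2 1.06 ± 0.31 against tissue, adjusted p = 0.0178), and did not pass at no more than 5% mitochondrial UMIs (log2 0.47, adjusted p = 0.245). Ube2c, Nusap1 and Aurka each lost their calls without either tissue library and by library totals without TMM (log2 0.61, 0.35 and 0.35), Ube2c also without assembloid replicate 2, and Aurka without assembloid replicate 1 and with the gate after thinning. Nusap1, at 246 and 132 CPM in assembloids, fell to log2 0.33 without assembloid replicate 1 (adjusted p = 0.457) and did not pass without either organoid library, at no more than 5% mitochondrial UMIs or with the gate after thinning either. Ttk, another checkpoint kinase, had the lowest G2/M value, at 27.7 and 31.2 in assembloids and 36.5 and 35.3 in tissue (log2 -0.29 ± 0.22, adjusted p = 0.316). These counts leaned on single libraries. The S count was 4, 4, 3 and 2 without assembloid replicates 1 and 2 and tissue replicates 1 and 2, and the G2/M count was 2, 1 and 1 without assembloid replicate 1 and tissue replicates 1 and 2 and 8 and 9 without organoid replicates 1 and 2. With library totals in place of TMM, which moved the median of all genes by -0.45, 13 S genes were lower, and among G2/M genes 1 was higher (Bub1) and 3 were lower (Cenpf, Kif11 and Ttk). E2f1, Ccne2 and Bub1 kept their calls against tissue under every alternative run for them.

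Cycling organoid cells were higher than cycling assembloid cells in all 18 S genes but in 4 of 22 G2/M genes, against 20.8% of all genes tested, and 24.8% of all genes were lower. The S differences ran from log2 0.71 ± 0.24 for Pcna (adjusted p = 0.0294, lost without any library but organoid replicate 2, at no more than 20% mitochondrial UMIs and with the gate after thinning) to 2.49 ± 0.29 for Ccne1 (adjusted p = 7.88e-05), with a median of 1.40. Rrm2 was at 149 and 97.6 CPM in organoids and 26.3 and 29.9 in assembloids, with tissue between them at 33.3 and 46.1. Of the G2/M genes Plk1, Cdc20, Kif20a and Ccnb1 were higher and Bub1 was lower, with a median of 0.24 over the 22, and with DESeq2, as without the Krt20 cells in the gate, Cdc20, Kif20a and Ccnb1 did not pass. Plk1 led at 88.7 and 71.7 against 43.2 and 42.8 (log2 0.90 ± 0.22, adjusted p = 0.00609), and Nusap1 was at the other end at 118 and 116 against 246 and 132 (log2 -0.69 ± 0.29, adjusted p = 0.0736). Nusap1 passed as lower in organoids with DESeq2 (log2 -0.82, adjusted p = 0.0219), without assembloid replicate 2 (log2 -1.05, adjusted p = 0.0137) and at no more than 5% mitochondrial UMIs (log2 -0.80, adjusted p = 0.0229). Leaving out organoid replicate 2 raised the G2/M count to 7, leaving out any other library lowered it to 1, and DESeq2 gave 1 higher and 2 lower. Without Krt20 cells 1 was higher. The S count stayed between 15 and 18 when 1 library was left out.

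Against cycling tissue cells, cycling organoid cells were higher in 13 of 18 S genes and 9 of 22 G2/M genes, against 18.3% higher and 17.1% lower of all genes tested, and lower in none of them. Rrm2 again led the S genes (log2 1.65 ± 0.27, adjusted p = 0.000918) and Cdc45, a subunit of the replicative helicase, was last, at 26.2 and 23.4 CPM against 16.2 and 24.3 (log2 0.31 ± 0.27, adjusted p = 0.402). E2f1 and Ccne2, which separated assembloids from tissue, did not pass (adjusted p = 0.160 and 0.103). At no more than 20% mitochondrial UMIs both were higher in organoids (adjusted p = 0.0282 and 0.0286), as was Ccne2 with no filter on low counts (adjusted p = 0.0346) and with a gate of 1 UMI each (adjusted p = 0.0254), while E2f1 turned to log2 -0.10 at no more than 5% mitochondrial UMIs. Aurka was the highest G2/M gene, at 86.1 and 63.4 against 35.0 and 30.8 (log2 1.18 ± 0.23, adjusted p = 0.00267, lost without tissue replicate 2), and Kif11, a motor that keeps spindle poles apart, the lowest, at 83.6 and 87.0 against 92.0 and 93.6 (log2 -0.12 ± 0.21, adjusted p = 0.684). The S count was 2 and 7 without tissue replicates 1 and 2, and the G2/M count was 2 and 0 without them and 3 without organoid replicate 1. With library totals in place of TMM, 8 S genes and 1 G2/M gene (Aurka) were higher and none was lower. At no more than 5% mitochondrial UMIs 8 S genes and 3 G2/M genes were higher, and with the gate after thinning 5 G2/M genes were. The 3 comparisons share libraries, so their counts are not independent.

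**Figure D4:**
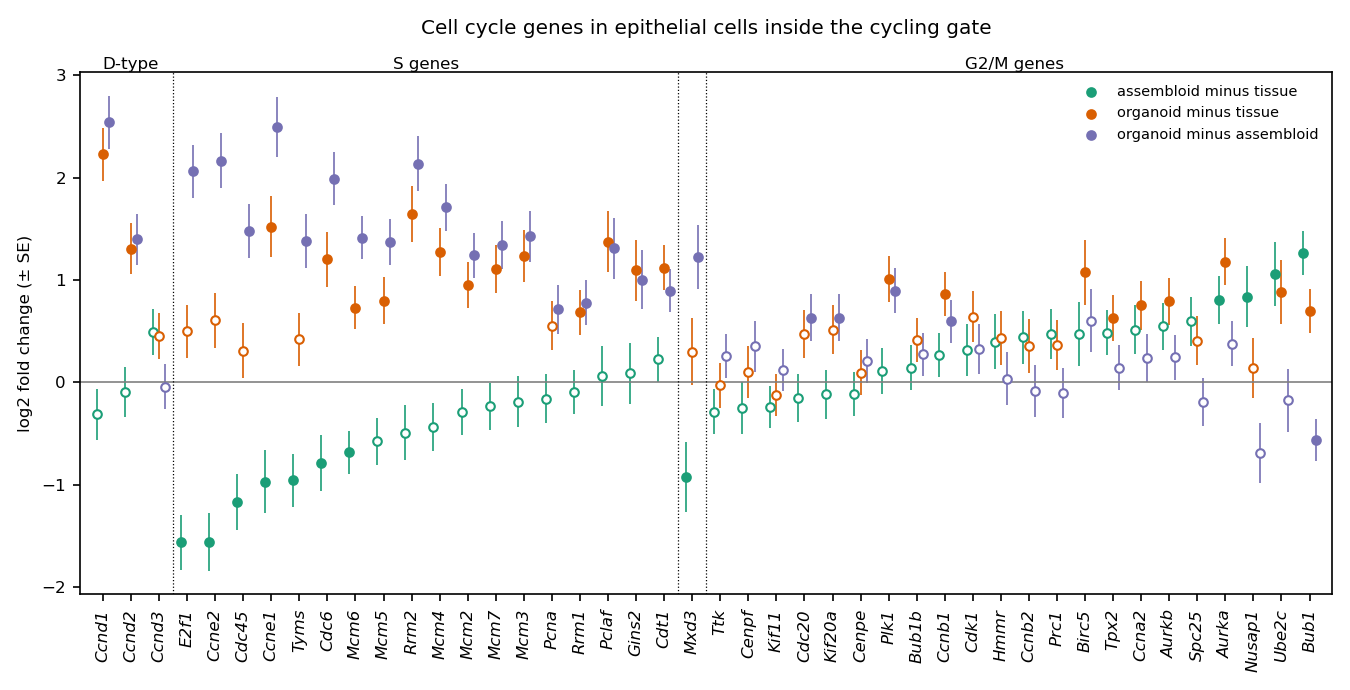
Log2 fold changes of the cell cycle genes in cycling epithelial cells (at least 2 UMIs of Mki67 and of Top2a), with 1 column per gene grouped by list and points for each of the 3 comparisons (bars, SE, n = 2 libraries per group, filled where the adjusted p is under 0.05). In organoids against assembloids the S genes lie between 0.71 and 2.49, and the G2/M genes scatter around a median of 0.24.

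The D-type cyclins, which couple growth signals to Cdk4 and Cdk6, differed among themselves, and none passed between assembloids and tissue with TMM scaling and all 6 libraries. Ccnd1 (chr7:144929931-144939925, GRCm38, minus strand) was at 390 and 291 CPM in all epithelial cells of organoids, 49.96 and 55.5 in assembloids and 50.4 and 58.9 in tissue. Organoids were 6.23-fold above tissue (log2 2.64 ± 0.25, adjusted p = 9.53e-05) and 6.46-fold above assembloids (log2 2.69 ± 0.25, adjusted p = 0.000130), while the assembloid and tissue libraries interleaved (log2 -0.05 ± 0.24, adjusted p = 0.868). In cycling cells the levels were 410 and 305, 59.7 and 63.0, and 68.3 and 84.3, and organoids remained above tissue (log2 2.23 ± 0.26, adjusted p = 8.57e-05) and above assembloids (log2 2.54 ± 0.26, adjusted p = 3.12e-05). Assembloids and tissue did not differ past the threshold there (log2 -0.31 ± 0.25, adjusted p = 0.333), but did by library totals without TMM (log2 -0.76, adjusted p = 0.0189). Ccnd2 was at 505 and 426 in organoids, 193 and 187 in assembloids and 228 and 218 in tissue, higher in organoids than in tissue (log2 1.06 ± 0.23, adjusted p = 0.00577, lost without either tissue library) and in assembloids (log2 1.29 ± 0.23, adjusted p = 0.00219). Assembloids and tissue did not differ past the threshold (log2 -0.23 ± 0.23, adjusted p = 0.427), but Ccnd2 was lower in assembloids by library totals without TMM (log2 -0.62, adjusted p = 0.0306). In cycling cells Ccnd2 was at 520 and 435, 194 and 168, and 201 and 185, again higher in organoids than in tissue (adjusted p = 0.00229, lost without tissue replicate 2) and in assembloids (adjusted p = 0.00101). Ccnd3 lay between 39.9 and 55.6 over all epithelial cells of the 6 libraries and between 37.2 and 60.8 in cycling cells, and passed in no comparison of either. Without organoid replicate 2 it passed between organoids and tissue (adjusted p = 0.0410 over all cells and 0.0447 in cycling cells) and between assembloids and tissue in cycling cells (adjusted p = 0.0382), where DESeq2 gave a call as well (log2 0.59, adjusted p = 0.0451). The E-type cyclins followed the S genes over all cells, Ccne1 at 37.5 and 20.9 in organoids, 5.55 and 3.54 in assembloids and 2.61 and 3.37 in tissue (organoids minus tissue, log2 3.29 ± 0.36, adjusted p = 0.000195). Ccne2 was at 32.5 and 24.7, 7.50 and 3.05, and 5.40 and 6.39 (log2 2.28 ± 0.39, adjusted p = 0.00186). Between assembloids and tissue neither E-type cyclin passed over all cells (adjusted p = 0.166 for Ccne1 and 0.751 for Ccne2). Ccne2 was lower in assembloids without assembloid replicate 1 (log2 -0.92, adjusted p = 0.0348) and turned to log2 0.34 without assembloid replicate 2, which did not pass. In cycling cells Ccne1 was also higher in organoids than in tissue (log2 1.52 ± 0.30, adjusted p = 0.00272), a call lost without tissue replicate 1.

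**Figure D5:**
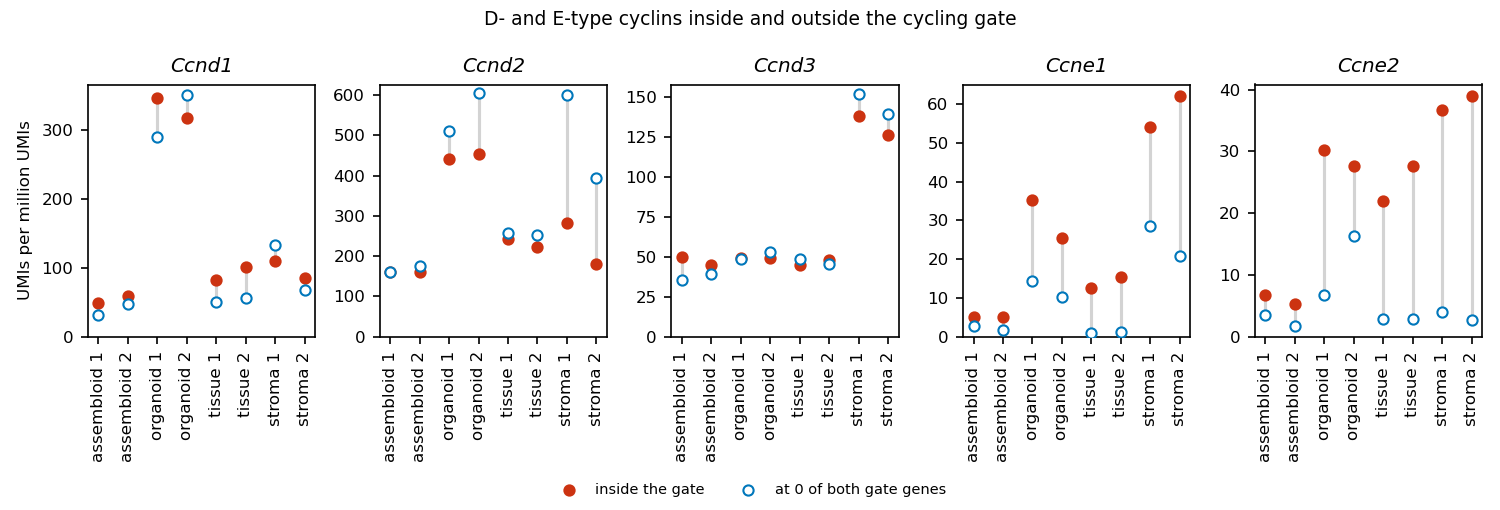
Levels of the D-type and E-type cyclins in plain CPM, with 1 panel per gene and 2 points for each of the 8 libraries. Filled points are cells inside the gate, and open points are cells with at least 5000 UMIs and none of Mki67 or Top2a. Epithelial cells are shown for the epithelial libraries and fibroblasts for the stromal libraries. Ccnd2 lies lower inside the gate in every library, at ratios of 0.454 to 0.988.

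Within a library, cycling cells were set beside cells with at least 5000 UMIs and no UMI of Mki67 or Top2a. All 22 other G2/M genes, all 18 S genes and Mxd3 were higher in the cycling cells of all 8 libraries, epithelium and stroma alike, which describes the gate and was not tested. Median ratios over the libraries ran from 7.44 (Ccnb2) to 42.3 (Nusap1) for the G2/M genes and from 2.48 (E2f1) to 17.7 (Pclaf) for the S genes. Ccnd2 was the only member below 1 in all 8 libraries. Its level in cycling against gate-negative cells was 282 and 600 plain CPM in stromal replicate 1 and 179 and 395 in stromal replicate 2. In epithelium the ratio of Ccnd2 was 0.947 and 0.887 in tissue, 0.988 and 0.910 in assembloids, and 0.863 and 0.750 in organoids. The stromal libraries, at 0.470 and 0.454, stood lowest. Ccnd1 was above 1 in 6 libraries, most in tissue at 1.66 and 1.81, and Ccnd3 in 4.

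Fibroblasts of the assembloid stroma were found inside the gate as well. It held 25.9% and 16.6% of them, and 11.0% and 7.73% after thinning to 5000 UMIs, and no fibroblasts that should lack these transcripts were at hand as a reference. Inside it, G2/M transcripts summed to 4460 and 4712 plain CPM and S transcripts to 1628 and 1815, a ratio of 0.365 and 0.385. The stromal files name another release of the counting software than the epithelial files, so cell type and software cannot be told apart between them. Fibroblasts found in the assembloid epithelial libraries give a comparison within 1 software release, although few of them were inside the gate (20 of 562 and 24 of 456). These shares, 3.56% and 5.26%, were found at median depths of 6428.5 and 11290.5 UMIs. The Krt20 cells of the same libraries were deeper (9494 and 18154.5), so no order is read from the unthinned shares. After thinning the fibroblast shares were 2.83% (exact interval 1.47 to 4.89) and 1.58% (0.636 to 3.22). Those of the Krt20 cells were 1.66% (1.16 to 2.29) and 1.54% (0.958 to 2.35). The intervals overlapped, so that no cycling is read from the fibroblast shares. The gated fibroblasts held G2/M transcripts at 4336 plain CPM (95% exact Poisson interval 4072 to 4613) and 4712 (4518 to 4913), as against 1977 and 2125 in the cycling epithelial cells of the same libraries. Their S sums were 803 (692 to 927) and 953 (866 to 1045), against 631 and 680 in the epithelial cells and 1628 and 1815 in the stromal libraries. Nusap1 was at 548 and 390 plain CPM in them, on 127 and 183 UMIs, against 202 and 125 in the epithelial cells. Conversely, of 442 epithelial cells in stromal replicate 1, 115 (26.0%) were inside the gate, and 33 of 435 (7.59%) after thinning, with no reference for background in that library. The 115 cells had S and G2/M sums of 1343 and 3655 and a ratio of 0.368. Ccnd1 was at 455 plain CPM in those gated cells, against 49.0 and 59.6 on the same scale in cycling cells of the assembloid epithelial libraries. The epithelial markers used here do not tell types of epithelium apart, and whether these are the same type of cell was not tested. The other stromal library held 49 epithelial cells, which were not analysed, so that the values of these 115 cells stand without a replicate.

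Further cell cycle genes, taken from lists of textbook S and G2/M genes outside the 46, gave the following counts. Over all epithelial cells, 36 of 38 further G2/M genes were higher in assembloids than in tissue and none was lower, against 26.6% higher and 23.2% lower of all genes tested, from Kif15 (log2 0.58 ± 0.20, adjusted p = 0.0381, lost without TMM, at no more than 20% mitochondrial UMIs (log2 0.21, adjusted p = 0.483), in all passing cells, in cells with at least 5000 UMIs and in 3 of the 6 fits without 1 library) to Psrc1, a spindle protein (log2 2.69 ± 0.30, adjusted p = 0.000246). Of 35 further S genes 10 were higher, a share near that of all genes, and 4 lower, and Ung, a uracil glycosylase, was the lowest (log2 -1.45 ± 0.31, adjusted p = 0.00513). In organoids all 35 and all 38 were higher than in tissue (24.2% of all genes tested), and 33 of each were higher than in assembloids (24.3%). Inside the gate 17 of the 35 S genes were lower in assembloids than in tissue and 2 higher, against 19.9% lower and 22.9% higher of all genes, led by Fen1, the flap endonuclease of Okazaki fragments, at 5.89 and 5.62 CPM in assembloids, 20.5 and 31.5 in tissue and 50.8 and 33.5 in organoids (log2 -2.16 ± 0.29, adjusted p = 0.000209). Of the 38 G2/M genes 7 were higher and 1 lower there, so that the share higher was no larger than that of all genes. Cycling organoid cells exceeded cycling assembloid cells in 30 of 35 S genes and 5 of 38 G2/M genes, against 20.8% of all genes.

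Assembloid epithelium held more transcripts of several kinase inhibitors than tissue, over all cells as well as in cycling cells. Over all epithelial cells, 6 of 10 CDK inhibitors and pocket proteins were higher than in tissue and 2 lower, against 26.6% and 23.2% of all genes tested. Cdkn1a, which encodes the p21 inhibitor, was there at 390 and 331 CPM in assembloids, 90.4 and 108 in tissue and 78.6 and 61.2 in organoids (assembloids minus tissue, log2 1.86 ± 0.25, adjusted p = 0.000571). Cdkn2b, the p15 inhibitor, was at 68.3 and 74.1, 32.6 and 42.02, and 11.6 and 6.80 in the same order (log2 0.93 ± 0.27, adjusted p = 0.0203), a call lost without assembloid replicate 2 or either tissue library and by library totals without TMM (adjusted p = 0.0905). In cycling cells, where 22.9% of all genes were higher and 19.9% lower, 7 of the 10 were higher than in tissue (Cdkn1a, Cdkn1b, Cdkn1c, Cdkn2a, Cdkn2b, Cdkn2d and Rb1) and 3 lower (Cdkn2c, Rbl1 and Rbl2). Cdkn1a was at 319 and 275 CPM in cycling cells of assembloids, at 36.8 and 44.8 in tissue and at 70.1 and 54.3 in organoids. It was higher in assembloids than in tissue (log2 2.87 ± 0.26, adjusted p = 1.37e-05). Organoids minus assembloids gave a lower level (log2 -2.26 ± 0.25, adjusted p = 5.17e-05). Krt20 cells made up 11.2% and 9.96% of gated assembloid cells. Both calls were kept without them. The gate held 8.38% and 7.31% of Krt20 cells in assembloids against 1.76% and 1.09% in tissue. The part of other differentiated cells inside the gate was not tested. Cdkn2b was at 53.6 and 56.1, 7.29 and 5.62, and 10.3 and 5.90 in the same order. Cdkn2a rested on 1 and 3 UMIs in cycling tissue cells, against 141 and 127 in assembloids and 1050 and 228 in organoids, so no fold is given. In cycling organoid cells 2 of the 10 were higher and 3 lower than in tissue (18.3% and 17.1% of all genes), and against assembloids 1 was higher (Rbl1) and 5 were lower (20.8% and 24.8%). Of 20 interphase kinases and E2F partners, cycling assembloid cells were higher than tissue in 4 and lower in 5, shares near those of all genes, from E2f7, a repressing E2F (log2 -1.49 ± 0.24, adjusted p = 0.000679), to Lin9, a MuvB subunit (log2 1.46 ± 0.24, adjusted p = 0.000707). Transcripts of replication-dependent histone genes mostly lack the poly(A) tails that 3' libraries capture. Inside the gate these genes were higher in organoids than in tissue in 10 of 11 cases, against 18.3% of all genes. They reached log2 2.30 for Hist1h1b (not past the threshold without tissue replicate 2). Hist1h1c was lower (log2 -0.87), a call lost without organoid replicate 2 or either tissue library and at no more than 20% mitochondrial UMIs (log2 -0.625). Histone genes are near copies of each other, so that reads may be split between them.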

How the data were processed

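Single cells were processed by the authors with a 10x 3' kit and Cell Ranger against mm10. The labels name version 6, whereas the headers name 7.1.0 for the epithelial and 6.0.1 for the stromal files. Whether intronic reads were counted is not given in the sources used here. The authors deposited raw UMI counts per gene and cell. Barcodes with fewer than 500 genes or more than 10% mitochondrial UMIs were dropped, as in the study's stromal analysis (the study states fewer epithelial cells after filtering for assembloids and more for organoids and tissue than were kept here, and shares of cells rest on the numbers kept here), and called epithelial or fibroblast where markers of that class had at least 3 UMIs and 0.8 of all marker UMIs. Doublets were left in, and an alternative left out gated cells above the 95th percentile of UMIs. Cycling cells had at least 2 UMIs of Mki67 and of Top2a. Counts were summed per library, filtered with filterByExpr, scaled by TMM and tested with edgeR 4.0.16 (R 4.3.3), with the 6 epithelial libraries in 1 fit and Benjamini-Hochberg adjustment over all genes, and the call threshold was an adjusted p of 0.05. Alternatives were DESeq2 1.42.0, library totals without TMM, no low-count filter, a replicate block, other mitochondrial and gene limits, other gates (1 UMI each, also after thinning to 5000 UMIs for the fits) and each library left out. Gene levels given with the fits are TMM-scaled CPM, also in cycling cells. Sums and levels called plain CPM were divided by all UMIs of the cells named, without TMM. Thinning drew 5000 UMIs per cell without replacement. The fit was tested on simulated data. Intervals were exact (Clopper-Pearson or Poisson, 95%). Gene positions came from GENCODE M21 and promoters from RefSeq, both on GRCm38.

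All 46 members are named. Full statistics were given for the highest and lowest S and G2/M gene in each comparison. For Mki67, Ccnd1, Ccnd2, Ccne1 and Ccne2 they were given in part of the comparisons. For Ccnd3 the range of levels and the calls were given. For further lists, counts and the highest or lowest called gene were given in part of the comparisons. Rrm2, Bub1, Aurka, Pcna, Plk1, Nusap1, Ube2c, E2f1, Mxd3, Fen1, Cdkn1a, Cdkn2a and Cdkn2b were also described where their values stood out after they were seen. The members and lists were chosen with earlier results of these data known. The stromal libraries entered no test.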

Additional observations from a re-analysis of the deposited data

Results flagged for a closer look

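Ccnd3, the D-type cyclin that passed in no comparison of the epithelia, differed in direction between assembloid epithelium and assembloid stroma when cycling cells were set beside cells without Mki67 and Top2a. The log2 ratio was 0.194 and 0.489 in the 2 epithelial libraries and -0.139 in both stromal libraries (-0.1393 and -0.1386). Every library of one group thus moved opposite to every library of the other, and the difference was not tested.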

How the results depend on the processing

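Counts of called genes were recomputed with 1 choice changed at a time. The organoid comparisons over all epithelial cells stayed within 1.5 times of their counts under each alternative, and without 1 library they ranged from 44 to 46 (organoids against tissue) and from 35 to 42 (against assembloids). In assembloids against tissue the 5 S genes became 2 without TMM and 0 to 6 without 1 library, the 21 G2/M genes 12 to 22 and the 26 in all 13 to 28. In cycling cells of assembloids against tissue, the 7 lower S genes became 13 without TMM, 11 at no more than 5% and 4 at no more than 20% mitochondrial UMIs, and 2 to 8 without 1 library. The 4 higher G2/M genes became 9 with DESeq2, 1 without TMM, 2 at 5% mitochondrial UMIs, 7 with a gate of 1 UMI, 2 with the gate after thinning and 1 to 9 without 1 library, and the 12 in all 19 without TMM and 3 to 17 without 1 library. In cycling cells of organoids against tissue, the 13 S genes became 8 without TMM, 8 at 5% and 2 to 15 without 1 library, the 9 G2/M genes 1, 3, 5 (gate after thinning) and 0 to 12, and the 24 in all 11, 13 and 6 to 30. In organoids against assembloids, the 4 higher G2/M genes became 1 with DESeq2, 2 at 20%, 2 with the gate after thinning, 1 without gated cells above the 95th percentile of UMIs, 1 without gated Krt20 cells and 1 to 7 without 1 library, while the S genes ranged from 15 to 18 and all from 19 to 28. Without 1 library of a pair, the lone one is assumed to vary like the other groups. The causes were not tested.

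The mean share inside the gate moved from 11.9% to 22.2% (gate of 1 UMI) and 6.34% (thinned) in assembloids, from 51.1% to 19.7% (thinned) in organoids, from 4.48% to 7.50% (1 UMI), 1.94% (5% mitochondrial) and 7.81% (at least 1000 genes) in tissue, and from 21.3% to 9.35% (thinned) in stroma. The mean ratio of S to G2/M moved from 0.320 to 0.360 (1 UMI), 0.279 (thinned), 0.331 (5%) and 0.318 (without Krt20 cells) in assembloids. With 1 UMI, thinned and at 5% it moved from 0.713 to 0.749, 0.509 and 0.733 in organoids. In the same order it moved from 0.539 to 0.608, 0.379 and 0.605 in tissue, and from 0.375 to 0.403, 0.299 and 0.367 in stroma.

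Of 1553 values for 91 single-gene results, 1357 kept direction and side of the threshold, 154 lost and 19 gained a call, and 23 changed sign, all in genes without a call. Over all cells, assembloids minus tissue, these were Ccnd1 at 0.139 (20% mitochondrial) and from -0.181 to 0.056 without 1 library, Ccnd3 at -0.115 (no TMM) and Ccne2 from -0.917 to 0.341 without 1 library (positive without assembloid replicate 2). For Ccnd1 the sign turned without assembloid replicate 1 (0.056) and tissue replicate 2 (0.046). Organoids minus assembloids gave Ccnd3 at -0.020 (DESeq2) and from -0.117 (without organoid replicate 1) through -0.021 (without assembloid replicate 2) to 0.226, and Nusap1 from -0.201 (without assembloid replicate 2) to 1.138 (without assembloid replicate 1). In cycling cells of assembloids minus tissue, Ccnd2 reached 0.006 (DESeq2), 0.062 (20%), 0.123 (gate after thinning) and -0.185 to 0.072 without 1 library, with 0.013 without assembloid replicate 2, and Cdt1 -0.222 (no TMM). In organoids minus tissue E2f1 reached -0.095 (5% mitochondrial; 0.280 to 0.770 without 1 library), Cdc45 -0.056 (no TMM) and Kif11 0.205 (gate of 1 UMI). In organoids minus assembloids Ccnd3 reached 0.053 (no TMM), 0.058 (no filter), 0.022 (gate of 1 UMI) and -0.184 to 0.155 without 1 library, with 0.091 without organoid replicate 2. Calls lost without 1 library included Pclaf in assembloids against tissue, Ccnd2 in organoids against tissue, Pcna in organoids against assembloids and Ccne1 in cycling cells of assembloids against tissue.

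Samples that share a replicate number correlated by 0.252, 0.324 and -0.211 in their deviations from the group means over all cells. In cycling cells these values were 0.237, 0.257 and -0.167. With 2 libraries per group they cannot settle whether the numbers pair the libraries, and the main fit treated them as unpaired. A fit with a replicate block gave 28, 45 and 41 called members over all cells and 12, 23 and 26 in cycling cells. The fits on cells with at least 5000 UMIs and without gated Krt20 cells were added after seeing the data.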
